A study of Mus musculus with 8 samples.

Results

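The 34 genes described here encode the contractile apparatus of the heart muscle cell and the proteins of its Z-disc. They were taken as a fixed list: 9 genes of the thick filament and M-line, titin, 11 genes of the thin filament and 13 genes of the Z-disc and its partners. RNA came from HL1, a mouse cardiomyocyte line that stems from an atrial tumour driven by SV40 large T antigen under the atrial natriuretic factor promoter, so all libraries describe 1 immortal line and no heart tissue. No genotype, treatment or time is named beyond the line, which was grown in Claycomb medium with norepinephrine, and its nuclei were split into nucleoplasm, which a buffer of urea and detergent released, and the chromatin pellet. Short-read libraries were made from both fractions of 3 independent cultures (3 chromatin and 3 nucleoplasm libraries, each from 100 ng of RNA without ribosomal RNA, read as 50 bp stranded reads). Long-read cDNA libraries were made from the chromatin fraction only (2 libraries). Their RNA was depleted of ribosomal RNA and then given poly(A) tails by an added enzyme, so it was not selected for natural tails. The label for the RNA fraction reads chromatin in all short-read samples, and the nucleoplasm libraries were identified by their titles.

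In a sarcomere, thick filaments of myosin pull on thin filaments of actin, tropomyosin and the troponin complex, which lets calcium switch contraction on. The giant protein titin runs from the Z-disc, where alpha-actinin cross-links the thin filaments, to the M-line, where myomesin holds the thick filaments in register. Many of these proteins exist as atrial, ventricular, skeletal and developmental forms, each from its own gene. Nuclear RNA holds both transcripts still being made and spliced, which tend to stay with chromatin, and processed messenger RNA on its way out of the nucleus.

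Each gene was given the row of the short-read table whose assembled locus lay on the same strand and shared at least 0.5 of the joint span with the gene in GENCODE M21, or otherwise the sum of the rows listed under its RefSeq accessions. By this rule 30 of the 34 genes had a value, 26 from an assembled locus (median shared span 0.954) and 4 from accession rows (Myl2, Myl3, Myom2 and Synpo2l). Myh6, Myh7, Tnnt2 and Tpm2 had no row of their own, because the locus over each also covered a neighbouring gene. The table held 45731 features after this step, of which 30733 mouse features were above 0 in at least 1 library and were tested. Values are counts divided by a size factor for each library, called normalized counts here, and the reads behind them ranged from 91657034 to 121773350 per library. Differences are log2 fold changes of chromatin over nucleoplasm on log2(normalized count + 1), tested with limma, with p-values adjusted by Benjamini-Hochberg over all features, and a gene was called at an adjusted p under 0.05. Libraries with 1 number in both fractions were taken as 1 culture, which neither the labels nor the study states outright. The fit with the culture as a block rests on this pairing and is given wherever it changed a call.

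The promoters of these genes carried a CArG box, the binding sequence of serum response factor, more often than promoters at large. RefSeq promoter windows (assembly GRCm38.p6, 250 bases before to 50 bases after a start) were found for 30 of the 34 genes, and 8 of their 42 windows (19.1%) held a match, against 1.63% of all 32851 windows. The matches lay in 7 genes, and they are shown because this motif's share stood furthest, as a ratio, from that of all windows among the 6 motifs searched. Each line gives 20 bases on either side of the match, on the strand of the gene, with the match in capitals.
Actc1 (chr2:114052893-114052942, minus strand): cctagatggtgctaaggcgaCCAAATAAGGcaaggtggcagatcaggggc
Acta1 (chr8:123894819-123894868, minus strand): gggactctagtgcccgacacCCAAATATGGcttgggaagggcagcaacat
Nebl (chr2:17462989-17463038, minus strand): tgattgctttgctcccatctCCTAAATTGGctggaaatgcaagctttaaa
Myl7 (chr11:5898814-5898863, minus strand): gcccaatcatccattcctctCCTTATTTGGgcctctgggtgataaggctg
Myl3 (chr9:110763573-110763622, plus strand): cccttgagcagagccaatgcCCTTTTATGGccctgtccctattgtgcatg
Myom1 (chr17:71019438-71019487, plus strand): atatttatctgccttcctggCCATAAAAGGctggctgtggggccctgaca
Ldb3 (chr14:34588687-34588736, minus strand): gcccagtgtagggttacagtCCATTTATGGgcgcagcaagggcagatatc
The first base of the match lay between 35 bases (Ldb3) and 162 bases (Nebl) before the annotated start. The letters of the M-CAT element, CATTCC on either strand, were in 33.3% of the genes' windows and 14.7% of all windows, and the MEF2 site was in 11.9% and 3.19%. The TATA box (TATAAA) was in 11.9% and 13.6%, the GATA site (AGATAA) in 16.7% and 11.2%, and the E-box (CANNTG) in 81.0% and 72.3%. Both strands were searched, and no 2 matches of different motifs shared a base in these genes. A match is a run of letters and does not show that a factor bound there. The 7 genes with a CArG box did not move together between the fractions: Ldb3 was higher in chromatin, Acta1 and Myl7 were lower, and Actc1, Nebl, Myl3 and Myom1 were not called.

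The list split evenly between the fractions. Of the 30 genes with a value, 8 were higher in chromatin and 8 were lower, while 31.1% of all features tested were higher and 24.9% were lower. With the culture as a block, 11 were higher and 14 were lower (34.6% and 28.7% of all features), and no call made without the block was lost. The block added Myom1, Myom2 and Nebl to the higher genes and Myl4, Mybpc3, Tnnc1, Myoz2, Synpo2l and Des to the lower ones. The 3 chromatin libraries all lay above the 3 nucleoplasm libraries for 8 genes (34.7% of all features) and all below for 10 (27.4%). Within each culture the difference had 1 direction in all 3 cultures for 26 genes, upward in 11 (40.3% of all features) and downward in 15 (32.6%). The median log2 fold change of the list was -0.36, against 0.34 over all features tested, many of which had low counts. At a mean of at least 100 normalized counts, which 28 of the 30 genes reached, the medians were -0.43 for the list and -0.27 for 15584 features. The median difference of the list within a culture had an SD of 0.19 over the 3 cultures. Scaled to the ERCC standards that were added to each fraction, 12 genes were higher and 6 were lower (40.7% and 10.6% of all features). The median was then 0.30 against 0.81 over all features, those with low counts included. No ERCC-scaled median was taken at a mean of at least 100, so a comparison at like level is missing there. Scaled by TMM, 6 were higher and 10 were lower (29.7% and 26.2% of all features). Without culture 3, a setting chosen after the data had been seen, 11 were higher and 14 were lower (35.5% and 29.8%). Leaving out 1 library at a time gave 6 to 7 higher and 5 to 11 lower genes. Over all 29885 to 30701 features, ERCC standards included, 8544 to 9449 were then higher and 6875 to 7631 lower. The calls lost were those of Lmod2, Xirp1, Tnni3, Tcap and Smpx. With no filter on low values the calls of these 5 genes and of Ttn, Acta2 and Tnni1 were lost, and those of Lmod2 and Xirp1 were also lost under TMM and in edgeR.

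**Figure D1:**
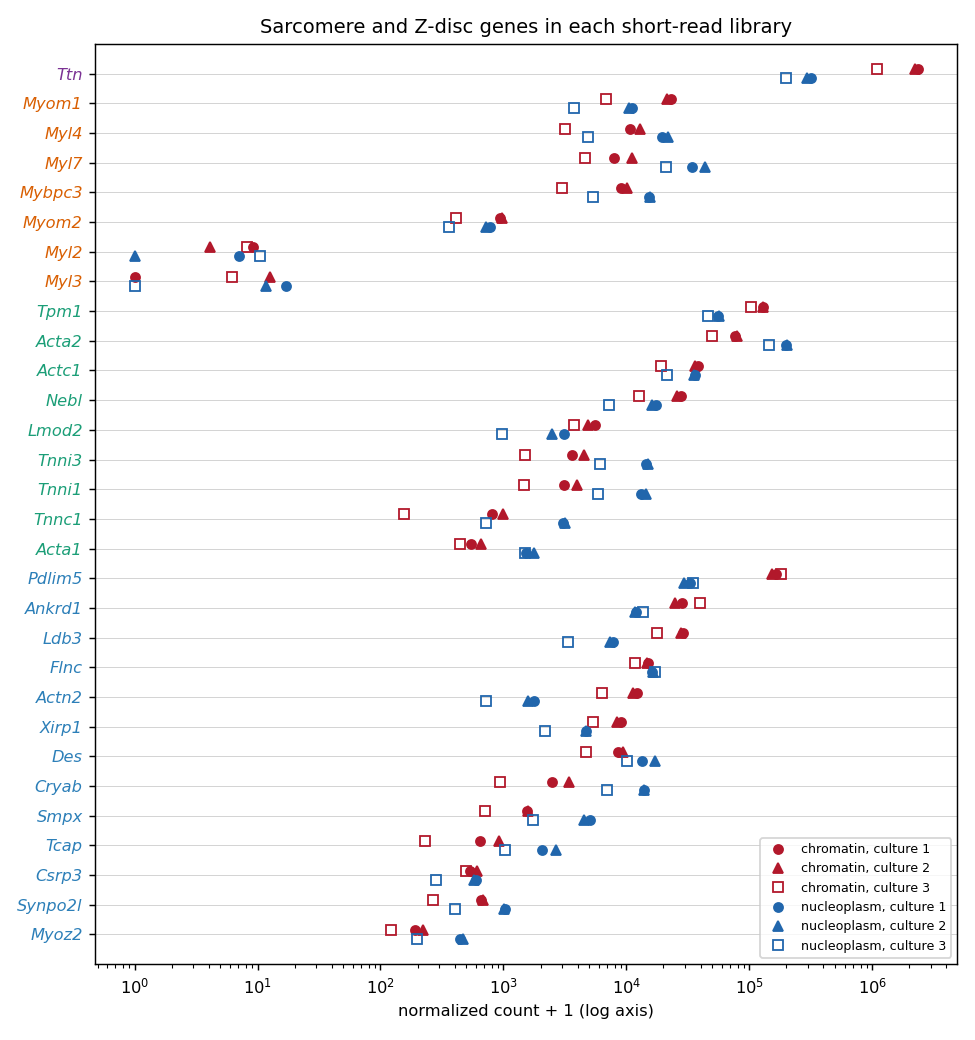
Normalized count plus 1 (log axis) of the 30 sarcomere and Z-disc genes with a value, in 3 chromatin and 3 nucleoplasm libraries, with genes grouped by role in the colour of their names (titin, thick filament, thin filament, Z-disc) and culture 3 drawn as open squares. Ttn stands above 1000000 in every chromatin library, Myl2 and Myl3 stay below 20 in every library, and the squares lie to the left for most genes.

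Titin was the most prominent of these RNAs in chromatin. Ttn (chr2:76703980-76982547, minus strand, 345 merged exons over 278568 bp in GENCODE M21 on mm10) had 2359206, 2218583 and 1094136 normalized counts in chromatin cultures 1 to 3 and 318157, 291354 and 199751 in nucleoplasm. Chromatin lay above nucleoplasm in every culture (log2 fold change 2.76 ± 0.39 SE, 3 against 3 libraries, limma adjusted p = 0.00112). Ttn alone took 2.31%, 2.27% and 1.15% of the counts of mouse features in the chromatin libraries, where it ranked 3, 3 and 4 among all features, and 0.310%, 0.252% and 0.227% in nucleoplasm, where it ranked 24, 26 and 20. The other 29 genes with a value together took 0.502% to 0.610% of chromatin and 0.413% to 0.521% of nucleoplasm. Counts grow with length, and titin has by far the longest messenger RNA of the list. Per kb of merged exon Ttn had 16184 ± 5935 normalized counts in chromatin (SD, n = 3), the fifth level of the list, and 2309 ± 531 in nucleoplasm, rank 13.

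Among genes of the thick filament and M-line, 1 of the 7 with a value was lower in chromatin, the atrial light chain gene Myl7, and 0 were higher. Of all features, 24.9% were lower and 31.1% higher. With the block 2 were higher and 3 lower, beside 34.6% and 28.7% of all features. Myl7 (chr11:5896637-5898782, minus strand), the atrial regulatory light chain, had 7880, 10991 and 4614 normalized counts in chromatin and 34052, 43889 and 21146 in nucleoplasm. All nucleoplasm libraries lay above all chromatin libraries, and chromatin was 4.29-fold lower (log2 fold change -2.10 ± 0.39 SE, limma adjusted p = 0.00384). Myl4, the atrial essential light chain, had 10759, 12770 and 3184 counts in chromatin and 19380, 21683 and 4828 in nucleoplasm. Its fractions overlapped across cultures, while each culture by itself was lower in chromatin, by -0.85, -0.76 and -0.60 on the log2 scale. Its call therefore depended on the block (log2 fold change -0.74, limma adjusted p = 0.436 without the block and 0.000887 with it), and on the ERCC scale the difference was -0.0039 (adjusted p = 0.996). The same held for Mybpc3, cardiac myosin binding protein C, at -0.73 (adjusted p = 0.362 and 0.000647, limma), which scaled to the ERCC standards lay at 0.0026. It also held for the M-line protein gene Myom1, at 0.97 (adjusted p = 0.228 and 0.000274, limma), which was called on the ERCC scale without the block as well (1.71, adjusted p = 0.0212). Myom2, the other myomesin of the list, lay at 411 to 973 counts in chromatin and 359 to 777 in nucleoplasm (log2 fold change 0.30, limma adjusted p = 0.581, 0.0256 with the block, and 0.0387 on the ERCC scale at 1.03).

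By their accession rows, which would miss reads counted under a locus shared with a neighbour, the ventricular light chains were close to absent beside the atrial ones. Myl2, the ventricular regulatory light chain, had 8.13, 3.14 and 7.29 normalized counts in chromatin and 6.06, 0 and 9.42 in nucleoplasm. Myl3, the ventricular essential light chain, had 0, 11.5 and 5.20 in chromatin and 16.2, 10.8 and 0 in nucleoplasm. Neither was called (limma adjusted p = 0.544 and 0.792), and at a handful of reads no difference between fractions was detectable. Per kb of exon, the level of Myl7 was 13269 ± 5405 normalized counts in chromatin (SD, n = 3) and that of Myl4 was 1920 ± 1090, beside 3.17 ± 1.37 for Myl2 and 2.73 ± 2.82 for Myl3. Long-read levels are given in TPM, a share of all transcripts, scaled for length, that sums to 1000000 per library. No long-read transcript was assembled on the strand of Myl2 or Myl3. Those overlapping on the opposite strand, which the unstranded reads cannot tell apart, summed to 0.52 and 0.20 TPM at Myl2 and 4.81 and 6.06 TPM at Myl3. Myl7 had 185 and 121 TPM on its own strand in long-read replicates 1 and 2. Overlapping transcripts on its opposite strand summed to 3486 and 749 TPM, so its own level is uncertain.

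The cardiac myosin heavy chains Myh6 (alpha, the main form of the adult mouse heart) and Myh7 (beta) lie next to each other on chromosome 14, and short reads were counted there under 1 locus. That locus (chr14:54938847-54994549, minus strand) covers Myh6, Myh7 and the microRNA genes Mir208a and Mir208b, which sit in introns of the heavy chain genes. It had 86442, 91739 and 13623 normalized counts in chromatin and 61767, 59896 and 9379 in nucleoplasm. Culture 3 was far below the others in both fractions, and each culture was higher in chromatin (log2 fold change 0.55 ± 1.02 SE, limma adjusted p = 0.667, and 0.00264 with the block). The heavy chain coding sequences also share long exact stretches, which reads of 50 bases cannot place. Of all 50-base words of the longest Myh6 transcript, 22.6% occurred in a Myh7 transcript too, while among the other 32 genes the largest share found in any other gene was 2.22% (Acta1) and 28 had none. The longest such stretch, 200 bases, is shown for its length. It runs 5′ to 3′ on the minus strand at chr14:54944348-54944547 (exon 36 of Myh6) and again at chr14:54972758-54972957 (exon 38 of Myh7).
Myh6 and Myh7: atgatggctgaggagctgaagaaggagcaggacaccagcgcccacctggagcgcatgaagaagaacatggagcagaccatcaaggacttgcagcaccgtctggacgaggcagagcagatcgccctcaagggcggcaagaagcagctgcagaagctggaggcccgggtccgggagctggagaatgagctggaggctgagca
Long-read transcripts were assembled inside each gene. Those on the same strand inside Myh6 summed to 73.5 and 14.8 TPM in replicates 1 and 2, and those inside Myh7 to 4.55 and 2.48 TPM. Opposite-strand transcripts, which the unstranded reads cannot tell apart, summed to 84.5 and 13.1 TPM inside Myh6 and to 0 inside Myh7. With 2 libraries of 1 fraction these are levels without a test.

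The introns of the heavy chain genes hold a pair of microRNAs with 1 seed. Their mature 3p forms are given with the seed (bases 2 to 8) in capitals, because both share it and thereby the sequence that pairs with targets. The sequences are from RefSeq on GRCm38.p6, minus strand of chromosome 14.
mmu-miR-208a-3p (chr14:54949072-54949093): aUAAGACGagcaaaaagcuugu
mmu-miR-208b-3p (chr14:54975710-54975731): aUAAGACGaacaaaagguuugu
Neither microRNA gene, nor Mir499 in the related gene Myh7b, had a row of its own. Mhrt, a long noncoding RNA transcribed antisense to Myh7, had 29.5, 60.8 and 12.5 normalized counts in chromatin and 6.06, 9.59 and 4.35 in nucleoplasm. Its chromatin libraries all lay above its nucleoplasm libraries (log2 fold change 2.0 ± 0.61 SE, limma adjusted p = 0.0306), though all its counts were low.

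**Figure D2:**
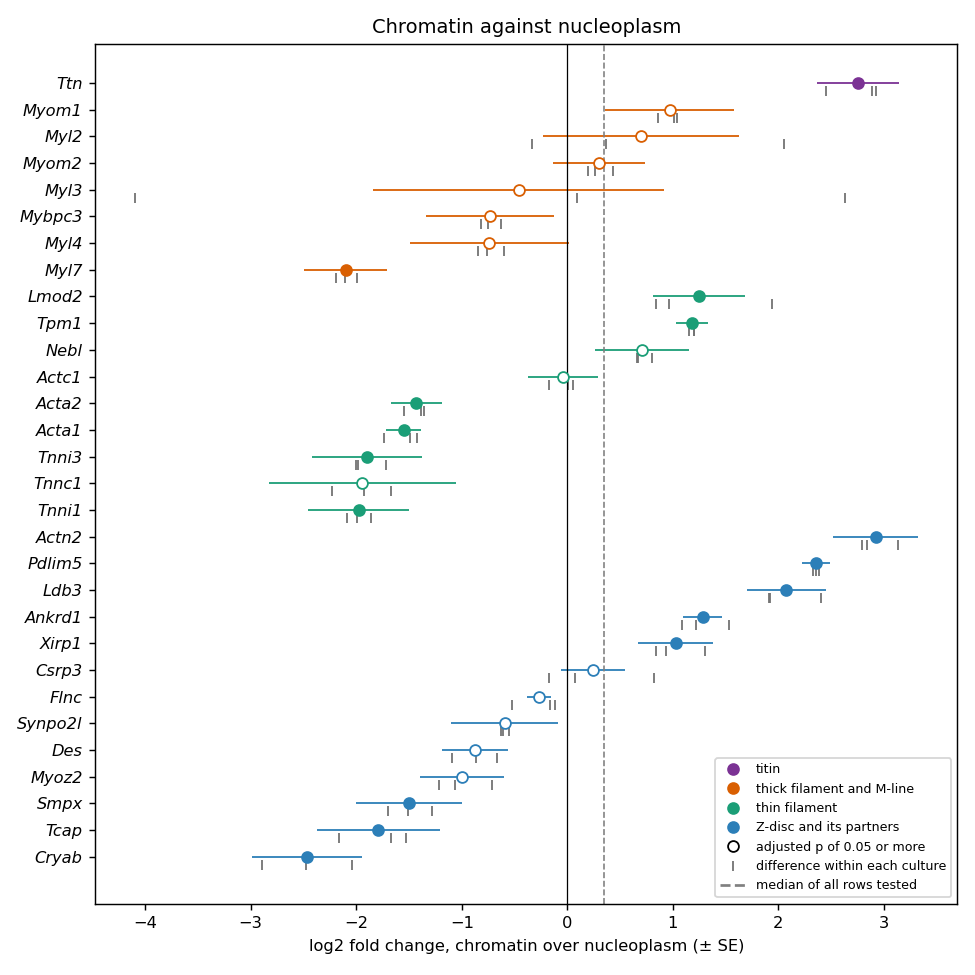
Log2 fold change of chromatin over nucleoplasm (points, with the standard error of the fit without the block as bars), with genes grouped by role and open points for an adjusted p of 0.05 or more; grey ticks give the difference within each of the 3 cultures, and the dashed line is the median of all features, 0.34. Titin and 3 Z-disc genes lie above 2, Tnni1, Tnni3 and Tnnc1 lie near -2 with Tnnc1 open, and the ticks of most genes lie inside the bars.

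Of the 9 thin filament genes with a value, 2 were higher in chromatin and 4 were lower, beside 31.1% and 24.9% of all features. Tnni3 and Tnni1, the inhibitory troponin subunit genes of the list, were among the lower ones. Tnni2, an inhibitory subunit gene outside the list, had 0 to 15.2 counts and was not called (log2 fold change 0.68, limma adjusted p = 0.692). Tnni3, the adult cardiac inhibitory subunit, had 3637, 4545 and 1509 normalized counts in chromatin and 14399, 14979 and 6044 in nucleoplasm (log2 fold change -1.90 ± 0.52 SE, limma adjusted p = 0.0201). Tnni1, the inhibitory subunit of slow skeletal and fetal heart muscle, had 3095, 3962 and 1476 in chromatin and 13129, 14348 and 5884 in nucleoplasm (-1.98 ± 0.48, limma adjusted p = 0.0121). For Tnni3 and for Tnni1 every nucleoplasm library lay above every chromatin library. Per kb of exon the fetal form stood at 790 ± 351 normalized counts in chromatin (SD, n = 3) and the cardiac form at 1566 ± 755. The level of Tnni3 per kb was 1.78 to 2.05 times that of Tnni1 within each library. Tnnc1, the calcium-binding subunit, had 802, 995 and 153 in chromatin and 3043, 3171 and 722 in nucleoplasm (log2 fold change -1.94 ± 0.88 SE, limma adjusted p = 0.109, and 0.000200 with the block). The locus over Tnnt2, the tropomyosin-binding subunit, also covers Lad1 (chr1:135818598-135852268, plus strand), and it had 66153, 71612 and 48380 counts in chromatin and 73178, 75455 and 45489 in nucleoplasm, a difference of -0.04 (0.69 on the ERCC scale) that was not called (limma adjusted p = 0.895, and 0.685 with the block).

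Of the 3 actin genes, Acta1 and Acta2 were lower in chromatin and Actc1 was not called. Actc1, cardiac alpha-actin, had 37852, 35869 and 19074 normalized counts in chromatin and 36416, 35744 and 21517 in nucleoplasm. The fractions overlapped, with a log2 fold change of -0.04 ± 0.33 SE (limma adjusted p = 0.931, and 0.695 with the block), which was 0.70 on the ERCC scale (adjusted p = 0.0657). Acta2, smooth muscle alpha-actin, which heart muscle also makes early in development, had 75780, 78944 and 49701 in chromatin and 198285, 202137 and 145543 in nucleoplasm (-1.43 ± 0.24, limma adjusted p = 0.00245). Acta1, skeletal alpha-actin, had 545, 661 and 445 in chromatin and 1533, 1780 and 1484 in nucleoplasm (-1.55 ± 0.17, limma adjusted p = 0.000329). Per kb of exon Acta2 had the highest level of the list in both fractions, 31030 ± 7308 normalized counts in chromatin and 82873 ± 14399 in nucleoplasm (SD, n = 3). Actc1 followed in chromatin with 19117 ± 6376, a level that overlapped those of Pdlim5 (18631 ± 1576), Tpm1 (18492 ± 2255) and Ttn. Acta1 stood at 358 ± 70.3. The chromatin rank of Acta2 depended on the length used. Per kb of the longest annotated transcript, Tpm1 was highest in chromatin at 41494, above Acta2 at 33485 and Pdlim5 at 32972. In nucleoplasm Acta2 stayed highest by that measure, at 89429.

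Tropomyosin 1 and leiomodin 2 went the other way. Tpm1, the main cardiac tropomyosin, had 128168, 128554 and 103031 normalized counts in chromatin and 55770, 56077 and 46315 in nucleoplasm (log2 fold change 1.18 ± 0.15 SE, limma adjusted p = 0.000778). Lmod2, which lengthens thin filaments at their pointed ends, had 5565, 4868 and 3731 in chromatin and 3103, 2498 and 970 in nucleoplasm (1.25 ± 0.44, limma adjusted p = 0.0497). Nebl, nebulette, which anchors thin filaments in the Z-disc, lay at 0.71 ± 0.44 (limma adjusted p = 0.225, 0.000722 with the block, and 0.00905 on the ERCC scale at 1.44). The locus over Tpm2, which also covers Arhgef39 (chr4:43496139-43523583, minus strand), had 11455, 11754 and 7276 counts in chromatin and 16135, 16469 and 11263 in nucleoplasm (log2 fold change -0.54, limma adjusted p = 0.105, and 0.00170 with the block), a direction that turned on the ERCC scale (0.20).

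Of the 13 Z-disc genes 5 were higher in chromatin and 3 were lower, near the 31.1% and 24.9% of all features, and they held both the largest rise and the largest fall of the list. Actn2 (chr13:12269426-12340760, minus strand), the sarcomeric alpha-actinin that cross-links actin at the Z-disc, had 12242, 11247 and 6366 normalized counts in chromatin and 1762, 1574 and 725 in nucleoplasm, a 7.58-fold difference (log2 fold change 2.92 ± 0.40 SE, limma adjusted p = 0.00105). Pdlim5, a PDZ and LIM domain protein that binds alpha-actinin, had 164539, 151841 and 179789 in chromatin and 32761, 29124 and 35071 in nucleoplasm (2.36 ± 0.13, limma adjusted p = 2.89e-05). Ldb3, also known as cypher or ZASP and of the same family, had 29085, 27863 and 17629 in chromatin and 7730, 7379 and 3335 in nucleoplasm (2.08 ± 0.37, limma adjusted p = 0.00331). With Ttn these were the 4 genes called with more than 4-fold higher counts in chromatin, against 16.7% of all features. Ankrd1, the stress-responsive ankyrin repeat protein of titin's I-band, and Xirp1, a protein of the intercalated disc, were higher by 1.28 ± 0.19 and 1.03 ± 0.36 (limma adjusted p = 0.00127 and 0.0484).

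Cryab (chr9:50751325-50756636, plus strand), the small heat shock protein alpha-B-crystallin that protects desmin and titin, had 2488, 3413 and 944 normalized counts in chromatin and 13823, 14016 and 7005 in nucleoplasm. This was the largest fall of the list, 5.53-fold (log2 fold change -2.47 ± 0.52 SE, limma adjusted p = 0.00691). Cryab and Myl7 were the genes called with more than 4-fold lower counts in chromatin, where 5.52% of all features were called so. That count of 2 was 0 without chromatin culture 3, 1 without nucleoplasm culture 2, 5 without chromatin culture 2 and 6 without nucleoplasm culture 3. Tcap, telethonin, which caps titin at the Z-disc, had 644, 919 and 229 in chromatin and 2057, 2658 and 1031 in nucleoplasm (-1.79 ± 0.58, limma adjusted p = 0.0386). Smpx, a small muscle protein of the costamere, was at 711 to 1584 in chromatin and 1726 to 5030 in nucleoplasm (-1.50 ± 0.50, limma adjusted p = 0.0418). Scaled to the ERCC standards, Tcap and Smpx kept their direction and were no longer called (limma adjusted p = 0.104 and 0.133).

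The intermediate filament gene Des (desmin) had 8475, 9361 and 4708 normalized counts in chromatin and 13460, 17094 and 10062 in nucleoplasm, without overlap, and was just outside the threshold (log2 fold change -0.88 ± 0.31 SE, limma adjusted p = 0.0522, and 0.00135 with the block), while on the ERCC scale it lay at -0.14 (adjusted p = 0.649). Myoz2, which tethers calcineurin to alpha-actinin, lay at -1.0 ± 0.40 (limma adjusted p = 0.0763, and 0.00226 with the block), against -0.27 on the ERCC scale, and Synpo2l, an actin-bundling partner of alpha-actinin, at -0.59 ± 0.51 (limma adjusted p = 0.370, and 0.00129 with the block), against 0.14 on the ERCC scale. Flnc (filamin C, an actin cross-linker) and Csrp3 (muscle LIM protein) were called in neither fit. Flnc lay at 11794 to 14889 in chromatin and 16136 to 16952 in nucleoplasm, a log2 fold change of -0.27 that was 0.47 on the ERCC scale. Csrp3 lay at 499 to 604 and 281 to 598, and on the ERCC scale it was higher in chromatin (0.97, limma adjusted p = 0.00907).

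Gene length went along with the difference between fractions. Across the 30 genes Spearman's rho between log2 fold change and the annotated span was 0.56, and with merged exon length it was 0.63. Across 10662 protein-coding genes with a mean of at least 100 normalized counts rho with span was 0.49. These are descriptions across genes that share libraries and are not independent replicates. Of the 16 genes of the list spanning under 20 kb, 3 were higher and 6 were lower in chromatin, with a median log2 fold change of -0.80, and of the 14 spanning at least 20 kb, 5 were higher and 2 were lower, with a median of 0.50. Among all such protein-coding genes, 12.6% of those under 20 kb were higher and 66.7% were lower (median -0.95), and 35.4% of the longer ones were higher and 31.9% lower (median 0.01). Ankrd1, Lmod2 and Xirp1 were short genes that were nonetheless higher in chromatin, and Tnni1 (31556 bp) and Smpx (53682 bp) were longer genes that were lower.

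**Figure D3:**
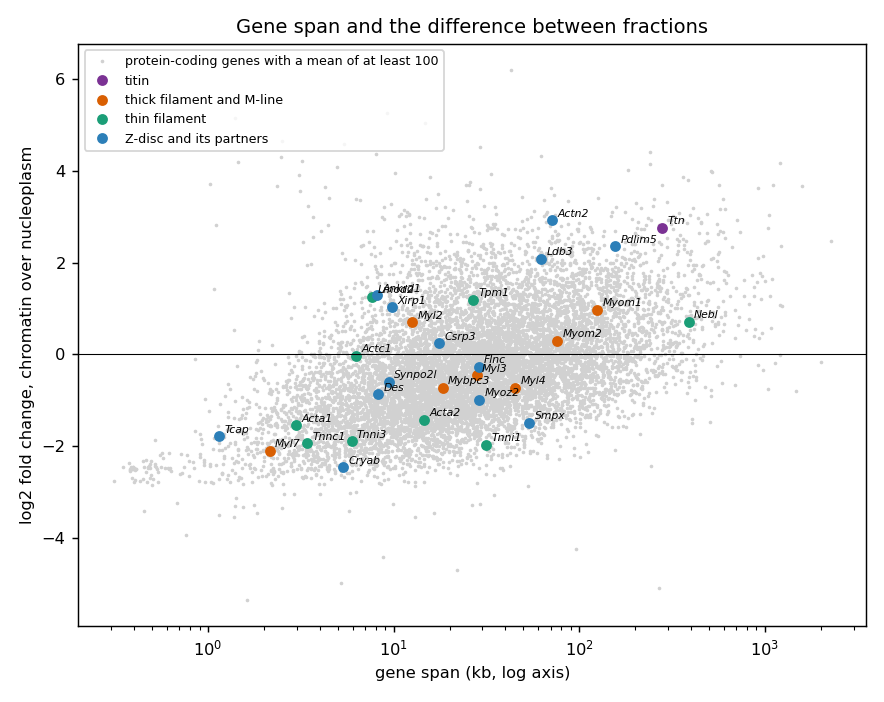
Log2 fold change of chromatin over nucleoplasm against the annotated gene span (kb, log axis) for the 30 genes, coloured by role, over 10662 protein-coding genes with a mean of at least 100 normalized counts in grey. Both sets rise with span, rho being 0.56 and 0.49, and Ttn, Pdlim5, Ldb3 and Actn2 lie at the upper right.

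Other genes of the same structures showed a like split. From a list of 83 related genes, 73 were tested, of which 19 were higher in chromatin and 20 were lower (31.1% and 24.9% of all features). Under the block 23 were higher and 30 lower (34.6% and 28.7% of all features). The median log2 fold change of the 73 was -0.21. Scaled to the ERCC standards the counts were 26 and 8, beside 40.7% and 10.6% of all features. After quantile normalization they were 12 and 24, beside 7438 and 8666 of 30819 features, ERCC standards included. By structure, 4 of 25 tested genes of myosin and the thick filament were higher and 5 lower, 3 of 15 of the thin filament were higher and 5 lower, and 11 of 32 of the Z-disc and costamere were higher and 10 lower. The largest rises among those with a mean of at least 100 normalized counts were those of Trim55, a titin-binding ubiquitin ligase of the M-line (2.71 ± 0.46, limma adjusted p = 0.00250), Fhl2, a LIM protein that binds titin (2.45 ± 0.40, adjusted p = 0.00219), and Cmya5, myospryn (2.39 ± 0.15, adjusted p = 3.78e-05). The largest falls were those of Tnnc2, the fast skeletal calcium-binding troponin subunit (-2.43 ± 0.32, limma adjusted p = 0.000832), Hspb1, a small heat shock protein like Cryab (-2.18 ± 0.23, adjusted p = 0.000290), and Myl6b, an essential light chain (-1.99 ± 0.13, adjusted p = 4.03e-05). Tnnc2 had 1223, 1429 and 636 normalized counts in chromatin and 5930, 6558 and 4523 in nucleoplasm, so that a skeletal troponin C was present beside the cardiac form.

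Culture 3 held less RNA of most of these genes, in both fractions. Of the 28 genes with a mean of at least 100 normalized counts, 25 had their lowest value in culture 3 in chromatin and in nucleoplasm alike, against 32.7% of all features of that level. The median log2 ratio of culture 3 to the mean of cultures 1 and 2 was -0.98 in chromatin and -1.15 in nucleoplasm for the list, and -0.09 and 0.03 over all features of that level. Tnnc1 lay furthest down, at -2.54 in chromatin and -2.10 in nucleoplasm, followed by Myl4 at -1.88 and -2.09. The locus over Myh6 and Myh7 lay at -2.71 and -2.70. Ankrd1 (0.57 and 0.20) and Pdlim5 (0.19 and 0.18) were the 2 genes highest in culture 3 in both fractions. With 1 culture of this kind the shift has no replicate and was not tested.

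Cardiomyocyte markers outside the list were also lower in culture 3 as a sum, while Gata4 and Mef2c were highest there in both fractions. The 9 cardiomyocyte markers, all above 10 counts on average, summed to 614129 to 624678 normalized counts in chromatin cultures 1 and 2 and 444757 in culture 3, and to 341480 to 354431 and 242548 in nucleoplasm. In its own row Nppa, the atrial natriuretic factor gene and an atrial marker, was low throughout, at 10.4 to 26.4 in chromatin and 15.9 to 112.7 in nucleoplasm. Reads counted under a locus that a marker shares with a neighbouring gene would be missing from these marker values. Nkx2-5, a cardiac transcription factor, was at 3029, 3595 and 1194 in chromatin, while Gata4 was at 80244, 77622 and 82875 and Mef2c was highest in culture 3, at 37937. Of the 8 fibroblast markers 6 were above 10 counts, and their sum was 120670, 135634 and 174007 in chromatin and 259211, 253853 and 461194 in nucleoplasm, with Tcf21 at 0 throughout. Col3a1 was at 18906, 21910 and 56749 in chromatin, where Col1a1 was at 101002, 112855 and 115918. Of the endothelial, smooth muscle and pericyte, skeletal muscle, and leukocyte lists, 3 of 6, 5 of 6, 3 of 6 and 2 of 5 were above 10 counts, with Cdh5, Kcnj8, Myod1 and Adgre1 at 0 in every library. Their sums ranged from 1054 to 2940, from 4345 to 5812, from 109 to 276 and from 79.3 to 184. In bulk RNA fewer cells of a type and less RNA per cell cannot be told apart, and the part of other cells or of the state of the culture in these differences was not tested.

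**Figure D4:**
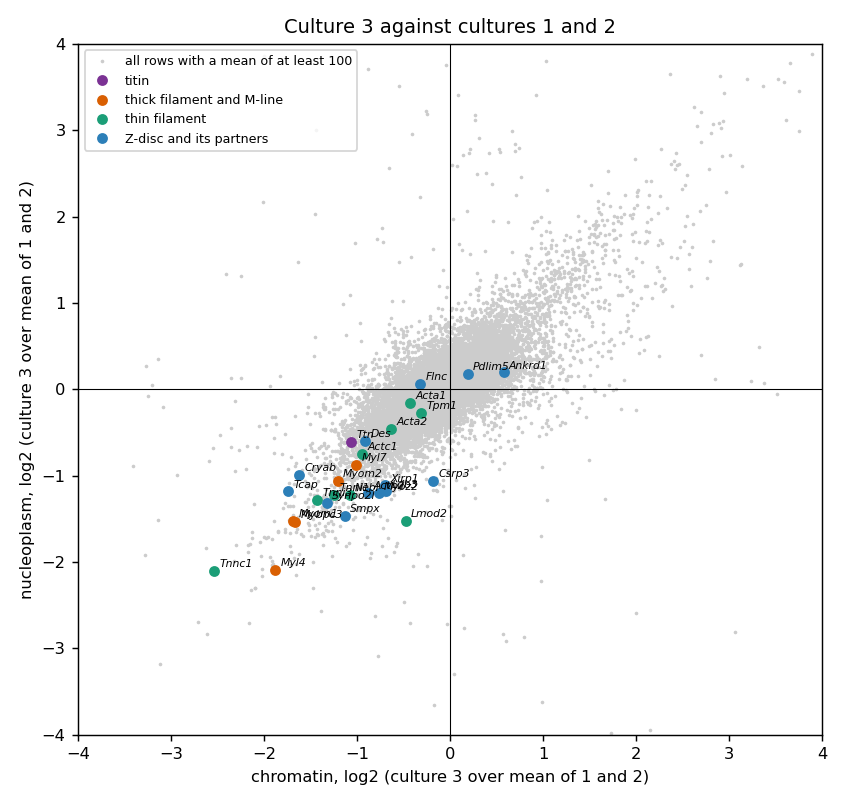
Log2 ratio of culture 3 to the mean of cultures 1 and 2 in chromatin (horizontal) and nucleoplasm (vertical) for the 28 genes with a mean of at least 100 normalized counts, over all 15584 features of that level in grey; features beyond the axis range of -4 to 4 are not drawn. 25 of the 28 genes lie below 0 on both axes, Tnnc1 and Myl4 furthest from the centre.

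Long reads of chromatin RNA covered 20 of the 34 genes with a same-strand transcript inside the annotated gene, and 32 with one that overlapped it. The sums inside the genes were 1111 TPM in replicate 1 and 526 TPM in replicate 2, and the sums with any overlap were 2864 and 1581 TPM. In 12 genes the same-strand transcripts all ran past an annotated end: Actc1, Acta1, Acta2, Tnnt2, Tnni1, Tpm2, Lmod2, Ldb3, Flnc, Synpo2l, Xirp1 and Des. By overlap Tnnt2 was highest, at 564 and 316 TPM in replicates 1 and 2, followed by Tpm1 at 343 and 232. Acta2 had 276 and 85.3, above Ttn and Myl7 in replicate 1 and below both in replicate 2. Ttn had 174 and 165 TPM in 31 transcript models, more than any other gene of the list. Counting only same-strand transcripts inside the gene, Ankrd1 (243 and 72.3 TPM), Tpm1 (218 and 110) and Myl7 (185 and 121) were highest, and Tnnt2 had 0. Replicate 1 was higher than replicate 2 for 29 of the 34 genes by overlap. Across the 30 genes with a short-read value, Spearman's rho between short-read counts per kb of exon in chromatin and mean long-read TPM was 0.80 by overlap and 0.29 for transcripts inside the gene, across genes and with no test.

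Strand limited what the long reads could show. The preparation of these libraries keeps no strand of origin. The study infers it for most reads from their primer sequences, a step that was not repeated here. Transcripts assembled on the opposite strand of the 34 genes summed to 1636 and 650 TPM inside the genes. Counted by overlap, opposite-strand transcripts exceeded same-strand ones in 11 genes. Cryab had 26.8 and 29.0 TPM on its own strand and 244 and 112 on the other, and Myl4 had 34.7 and 16.0 against 196 and 73.6. Myl7 had 185 and 121 against 3486 and 749, of which 238 and 35.6 lay inside the gene. For the stranded short reads only opposite-strand rows lying wholly inside a gene were counted, so rows that ran past an end were left out. The 2 measures are therefore not alike. Such inside rows passed 1% of the gene's own counts in any library only at Myl4 and Actn2. At Actn2 they reached 0.298% to 1.55% of its counts. At Myl4 they reached 3.46% to 11.9% in chromatin and 6.64% to 28.6% in nucleoplasm, with the highest share of each fraction in culture 3, where Myl4 itself was low.

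**Figure D5:**
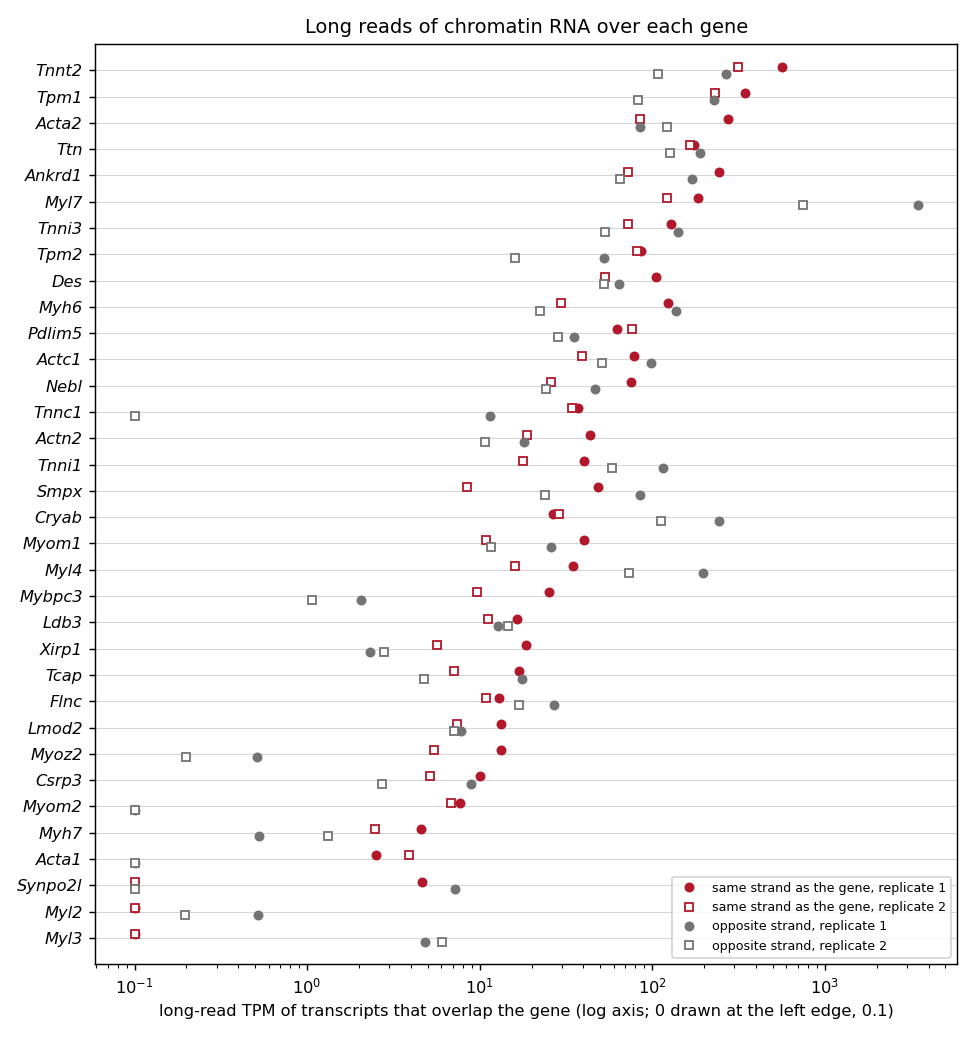
Long-read TPM (log axis, 0 drawn at 0.1) of transcripts that overlap each of the 34 genes, on the strand of the gene in red and on the opposite strand in grey, with replicate 1 filled and replicate 2 open. Tnnt2 and Tpm1 lead on their own strand in both replicates, Myl2 and Myl3 have no same-strand transcript, and the grey points lie to the right of the red ones for Myl7, Cryab and Myl4.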

How the data were processed

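HL1 nuclear RNA was sequenced as short reads in 3 chromatin and 3 nucleoplasm libraries, and as long reads in 2 chromatin libraries. Per the labels and the study's methods, short reads were aligned to mm10 with HISAT2 2.1.0, assembled with StringTie and counted per gene. The authors deposited these counts after division by DESeq2 size factors, a signal that is not scaled for length. The authors deposited StringTie TPM for long reads, aligned with minimap2 and without strand of origin. The study states the number of reads in each long-read library, and a higher minimum read quality for replicate 2 than for replicate 1. TPM holds no read count of a gene, so long-read precision per gene is unknown.

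Deposited short-read values were whole multiples of 1 read in 100% of cases (within 0.01 of a whole number), with size factors from 0.834 to 1.38. Symbols were matched for 36577 of 44536 accession rows and 13587 of 20637 assembled loci. A trended limma model (version 3.58.1, under R 4.3.3) was fitted on log2(normalized count + 1) over features above 0 in at least 1 library. edgeR 4.0.16 and DESeq2 1.42.0 were run on recovered reads as alternatives, where edgeR called 8357 features higher and 7925 lower and DESeq2 called 8518 and 7662. The fit was first tested on simulated reads. Other alternatives changed the pseudocount, the filter, the trend, the scaling, the row rule and the libraries left out.

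The study describes 3 independent cultures, and the labels number the replicates of each fraction without naming a culture. Same-numbered libraries were taken as 1 culture. Deviations from the fraction means correlated at 0.17, 0.17 and 0.40 between same-numbered libraries, and each library correlated best with its own number. No 2 libraries of a fraction agreed within sampling noise (chi-square per gene 42.9 to 2237), and all were kept. Levels were divided by the merged exon length of GENCODE M21. Named related genes were the 3 largest rises and the 3 largest falls among called genes with a mean of at least 100, and the noncoding RNAs of the cardiac myosin loci. The gene list, the related list and the markers were chosen with earlier results of these data known. No column was left unmapped. Computations used Python 3.11.15, numpy 2.4.6, pandas 2.3.3 and scipy 1.17.1.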

Additional observations from a re-analysis of the deposited data

How the results depend on the processing

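Of the single-gene fold changes under alternatives, 542 kept direction and side of the threshold, 46 gained a call, 45 lost one and 18 changed sign. The counts of called genes (8 higher, 8 lower, 4 and 2 by more than 4-fold) moved as follows. Without a filter, 5 were higher and 3 lower, beside 8331 and 6948 of all 45731 features. With a shared span of at least 0.8, which left 23 genes tested, 4 were higher, beside 9568 of 30818 features. The replicate block gave 14 lower with limma (28.7% of all features) and 15 with edgeR (9102 of 30819 features), with 4 by more than 4-fold in edgeR. With limma the block changed no call other than those given above. In edgeR the additional lower gene was Flnc. Scaled to the ERCC standards no gene was more than 4-fold lower. The same settings gave 12 higher and 13 lower related genes without a filter, 8 lower under ERCC scaling and 12 higher under quantile normalization. The median log2 fold change of the list, -0.36, was 0.30 under ERCC scaling, -0.59 under quantile normalization and -0.59 at a shared span of 0.8. The cause of these shifts was not tested. Leaving out 1 library at a time, or culture 3 in both fractions, gave 6 to 11 higher and 5 to 14 lower, 3 to 4 and 0 to 6 by more than 4-fold, 14 to 23 and 13 to 29 related genes, and a median from -0.66 to -0.095. The 14 lower genes came without culture 3, 5 came without chromatin replicate 1, nucleoplasm replicate 1 or nucleoplasm replicate 2, and by more than 4-fold 0 came without chromatin replicate 3, 1 without nucleoplasm replicate 2, 5 without chromatin replicate 2 and 6 without nucleoplasm replicate 3. Related genes lower in chromatin numbered 13 without nucleoplasm replicate 1 or nucleoplasm replicate 2. The genes that changed sign had no call in the fit without the block. Scaled to the ERCC standards, Myl3 (0.11), Mybpc3 (0.0026), Actc1 (0.70), Flnc (0.47) and Synpo2l (0.14) changed sign, as did Actc1 when scaled to the total of mouse genes (0.0082) and Myl2 by quantile normalization (-0.53). Leaving out libraries gave Myl2 from -0.34 to 1.35, Myl3 from -2.01 to 0.59, Myom2 from -0.056 to 0.70, Actc1 from -0.29 to 0.28 and Csrp3 from -0.11 to 0.43. The long-read sum inside the genes, 819 TPM on average, was 2223 with any overlap, 1962 with either strand, 526 to 1111 in single libraries. The number of long reads behind each gene is unknown, and Myl2 and Myl3 are limited by reads.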
